A study of Mus musculus with 5 samples.

Results

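ZFP24 peaks that hold a run of the tetranucleotide TCAT repeated in tandem were described in differentiated oligodendrocytes (OLG) and in oligodendrocyte progenitor cells (OPC) of the mouse. A peak was taken as a repeat peak when the 200 bp around its centre held an unbroken run of TCAT units at least 12 bases long, read on both strands from any letter of the unit. This gave 100 of 1752 peaks in OLG (5.71%, exact 95% interval 4.67 to 6.90) and 567 of 4643 peaks in OPC (12.2%, 11.3 to 13.2), or 667 of 6395 peaks in all. An uninterrupted run of this kind is called a tract here. At the edge of the rule, 1 OLG and 16 OPC repeat peaks had a longest tract of exactly 12 bases, and 10 OLG and 23 OPC peaks just missed it with a run of 11 bases.

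ZFP24, also called ZFP191, is a nuclear protein with C2H2 zinc fingers and a SCAN domain, and it binds DNA made of TCAT units. Loss of the protein in the mouse stops oligodendrocytes from maturing, so that axons of the central nervous system stay unmyelinated. Tandem tetranucleotides are microsatellites, which differ in length between strains because units are gained and lost when DNA is copied. A factor that reads such a unit can meet the same letters many times in a single tract.

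Chromatin immunoprecipitation sequencing was done with an antibody against ZNF24, the human name of the protein, on immunopanned brain cells of C57BL/6 mice at postnatal day 7. The tested chromatin came from wild-type OLG, differentiated over 5 days by withdrawing PDGF and adding 40 ng/ml triiodothyronine, and from wild-type OPC. Zfp191-null OLG and Zfp191-null OPC, taken through the same antibody, and a pooled input were the controls, and each of these 5 groups had 1 library. The values were 2 lists of peak positions, 1 for OLG and 1 for OPC, without scores, tag counts or replicates, so library depth is not known. All intervals are exact (Clopper-Pearson) intervals that cover counting error over peaks or tracts only. The tests compare peaks or tracts within a list, and no comparison of OLG with OPC was tested. These were cultured cells, so the peaks describe chromatin in culture, and a list of positions holds no marker level by which the cell types could be checked.

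Sequences of repeat peaks are shown to let the form of the repeat be seen, read from the RefSeq copy of GRCm38.p6 (mm10) on the strand that carries TCAT, 5′ to 3′. Capitals mark each tract of 12 bases or more, and 25 bases of flank stand on either side. The first 8 are the overlapping OLG and OPC peaks, with the repeat in both windows, that have the most tract bases when the windows are summed. They lie near Epha2, a receptor kinase for ephrins (chr4:141280977-141281121, minus strand), Scnn1a, a subunit of the epithelial sodium channel (chr6:125331280-125331413, minus), and Nagpa, a Golgi enzyme of the route that sends enzymes to lysosomes (chr16:5188389-5188514, plus). Next come Kcnj10, the Kir4.1 potassium channel of glia (chr1:172351108-172351214, plus), Srpk2, a kinase of splicing factors (chr5:23627838-23627944, minus), and Wnt7a, a Wnt ligand (chr6:91348083-91348219, plus). The last are near Ubash3b, a phosphatase that acts on tyrosine kinases (chr9:41274403-41274508, plus), and Arhgef10l, a guanine nucleotide exchange factor gene (chr4:140513517-140513620, minus).
Epha2: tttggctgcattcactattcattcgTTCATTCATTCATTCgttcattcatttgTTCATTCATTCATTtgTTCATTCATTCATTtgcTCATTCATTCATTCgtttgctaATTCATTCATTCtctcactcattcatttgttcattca
Scnn1a: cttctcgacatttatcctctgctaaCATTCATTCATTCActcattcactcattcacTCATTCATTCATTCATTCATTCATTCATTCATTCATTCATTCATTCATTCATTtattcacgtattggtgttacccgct
Nagpa: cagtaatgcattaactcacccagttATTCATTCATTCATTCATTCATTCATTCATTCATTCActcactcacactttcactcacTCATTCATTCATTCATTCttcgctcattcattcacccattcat
Kcnj10: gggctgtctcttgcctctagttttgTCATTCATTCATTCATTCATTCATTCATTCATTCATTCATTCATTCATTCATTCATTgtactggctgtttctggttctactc
Srpk2: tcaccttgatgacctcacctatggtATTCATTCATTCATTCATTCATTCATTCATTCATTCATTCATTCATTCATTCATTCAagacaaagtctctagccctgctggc
Wnt7a: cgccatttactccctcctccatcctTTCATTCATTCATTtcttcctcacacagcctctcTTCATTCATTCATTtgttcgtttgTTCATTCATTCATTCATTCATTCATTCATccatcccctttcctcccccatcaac
Ubash3b: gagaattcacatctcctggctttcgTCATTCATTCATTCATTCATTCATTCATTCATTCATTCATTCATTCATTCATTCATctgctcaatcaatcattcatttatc
Arhgef10l: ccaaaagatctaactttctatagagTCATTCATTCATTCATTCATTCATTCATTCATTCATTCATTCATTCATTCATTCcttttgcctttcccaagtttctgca

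These sites take more than 1 form. Kcnj10, Srpk2, Ubash3b and Arhgef10l hold a single perfect tract of 54 to 57 bases. Epha2 instead holds 5 separate tracts, none longer than 15 bases, that together span 69 tract bases. Nearest to Scnn1a and Nagpa, the sites join a long tract to further tracts through stretches with the near unit TCAC.

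Short tracts are shown from promoters, where they were common, at sites present in both lists. Tpcn2 encodes a cation channel of lysosomes (chr7:145284251-145284313, minus), Ube2n a ubiquitin-conjugating enzyme (chr10:95514752-95514814, minus), Serp2 a stress-associated protein of the endoplasmic reticulum (chr14:76556102-76556163, plus), and Crhr1 a receptor of corticotropin-releasing hormone (chr11:104132104-104132167, minus).
Tpcn2: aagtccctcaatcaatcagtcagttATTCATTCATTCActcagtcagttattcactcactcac
Ube2n: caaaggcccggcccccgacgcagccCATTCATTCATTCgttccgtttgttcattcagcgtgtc
Serp2: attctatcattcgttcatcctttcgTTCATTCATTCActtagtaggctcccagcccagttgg
Crhr1: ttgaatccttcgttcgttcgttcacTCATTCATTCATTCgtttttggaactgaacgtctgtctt

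The last set is from OPC peaks near genes of the oligodendrocyte lineage and its regulators. Sox10 encodes the transcription factor that drives myelin genes (chr15:79171931-79171992, plus), Mag a myelin glycoprotein (chr7:30908098-30908172, minus), Ncan the proteoglycan neurocan (chr8:70121445-70121533, plus), and Id1 an inhibitor of basic helix-loop-helix factors (chr2:152733972-152734077, plus). At Sox10 the single 12-base tract sits inside a longer broken array of TCAT and TCAC units, whereas Id1 has a perfect tract of 56 bases.
Sox10: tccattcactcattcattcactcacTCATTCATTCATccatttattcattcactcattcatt
Mag: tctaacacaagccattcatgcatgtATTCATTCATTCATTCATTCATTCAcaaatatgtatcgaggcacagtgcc
Ncan: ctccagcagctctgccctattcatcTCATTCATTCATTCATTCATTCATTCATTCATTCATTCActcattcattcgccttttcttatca
Id1: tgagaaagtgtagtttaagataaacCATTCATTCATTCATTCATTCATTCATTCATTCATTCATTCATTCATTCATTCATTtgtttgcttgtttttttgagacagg

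Repeat peaks were placed away from promoters more often than the other peaks of the same list. Peaks were called promoter peaks where 1 kb or less separated their centre from a protein-coding start. In OLG, 23 of 100 repeat peaks were at promoters (23%, 15.2 to 32.5), against 815 of 1652 peaks without the repeat (49.3%, 46.9 to 51.8). The odds ratio was 0.307 (0.182 to 0.50), with a Benjamini-Hochberg adjusted p of 6.7e-07 in Fisher's exact test. In OPC, 42 of 567 repeat peaks were at promoters (7.41%, 5.39 to 9.88), against 1604 of 4076 peaks without it (39.4%, 37.8 to 40.9). There the odds ratio was 0.123 (0.0873 to 0.170; adjusted p = 5.24e-60, Fisher's exact test). Repeat peaks were chosen by a sequence that itself seldom lies at promoters, with 330 of 16888 genomic tracts there. The tests of placing, here and for introns and intergenic sequence, therefore cannot separate where tracts lie from where peaks form. All tests quoted with an adjusted p were two-sided and adjusted over 13 tests unless said otherwise.

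Introns and intergenic sequence held most repeat peaks. The intergenic share was 42.0% in OLG repeat peaks against 24% in other OLG peaks (odds ratio 2.30, 1.48 to 3.53; adjusted p = 0.000224, Fisher's exact test). In OPC it was 39.2% in repeat peaks against 30.7% in other peaks (1.45, 1.20 to 1.74; adjusted p = 0.000166, Fisher's exact test). Protein-coding introns took in 54.9% of OPC repeat peaks against 43.1% of other OPC peaks (1.60, 1.34 to 1.92; adjusted p = 6.44e-07, Fisher's exact test). In OLG the intron shares were 48% of repeat peaks and 41.8% of other peaks, a difference that did not pass the test (1.29, 0.840 to 1.97; adjusted p = 0.327, Fisher's exact test). Coding exons held 0 of 100 OLG repeat peaks, with an exact upper limit of 3.62%, against 15.3% of other OLG peaks. In OPC they held 3 of 567 repeat peaks (0.529%) against 8.91% of other peaks. The GC content moved with these groups. Outside the tracts it had a median of 48.9% in OLG repeat peaks against 60.0% in the whole window of other OLG peaks, and of 45.8% in OPC repeat peaks against 53.0% in other OPC peaks. Away from promoters the medians were 47.6% in OLG repeat peaks against 52.0% in other OLG peaks, and 45.7% in OPC repeat peaks against 49.5% in other OPC peaks. Its part in the placing was not tested.

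**Figure D1:**
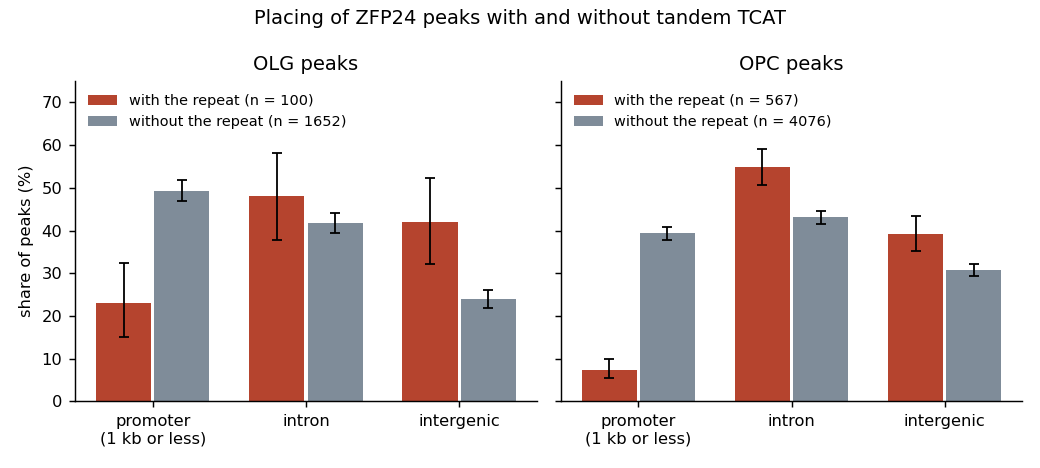
Share of peaks (%) at promoters, in introns and in intergenic sequence, for OLG peaks (left panel) and OPC peaks (right panel), with repeat peaks in red and peaks without the repeat in grey. Bars are shares and whiskers exact 95% intervals, and a promoter peak also counts as intron or intergenic. The red promoter bars, at 23% and 7.41%, stand below the grey ones at 49.3% and 39.4%.

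The distance to genes followed the same pattern. OLG repeat peaks lay at a median of 11694 bp from the nearest protein-coding start, with quartiles of 1396 and 38520 bp, against a median of 1076 bp for other OLG peaks. OPC repeat peaks lay at a median of 26825 bp (quartiles 8414 and 75625 bp), against 6352 bp for other OPC peaks. Among intergenic peaks alone the order turned in OLG, with medians of 10196 bp for repeat peaks and 11727 bp for other peaks, but not in OPC, with 32800 and 24956 bp. Among intronic peaks the medians were 12952 and 1426 bp in OLG, and 23837 and 6548 bp in OPC. The class from 10 to 100 kb held 43.0% of OLG repeat peaks and 51.7% of OPC repeat peaks, more than any of the other 3 distance classes in each list. Over 100 kb from any start lay 9.0% of OLG and 21.0% of OPC repeat peaks. So a nearest gene is often far away, and it is named below as a landmark only. For intronic repeat peaks the host gene was not the nearest gene in 8 of 48 cases in OLG and 58 of 311 in OPC.

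**Figure D2:**
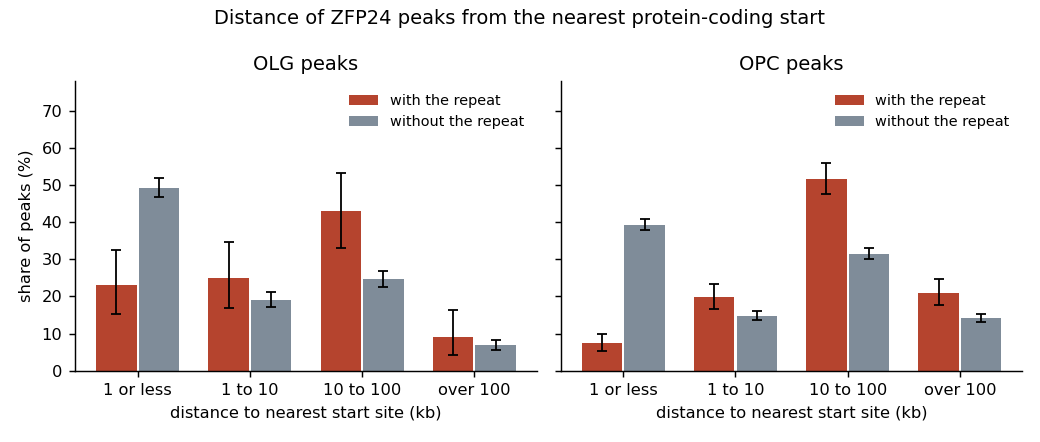
Share of peaks (%) by distance from the peak centre to the nearest protein-coding start in kb, for OLG (left panel) and OPC (right panel), with repeat peaks in red and peaks without the repeat in grey. Bars are shares with exact 95% intervals. The red bars are highest at 10 to 100 kb, with 43.0% in OLG and 51.7% in OPC, and the grey bars at 1 kb or less.

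Tracts were long in both cell types. The longest tract of a repeat peak had a median of 27 bases in OLG (range 12 to 57) and 29 bases in OPC (range 12 to 63). A longest tract of at least 24 bases, here called long, was held by 64 of 100 OLG repeat peaks (64.0%, 53.8 to 73.4) and by 407 of 567 OPC repeat peaks (71.8%, 67.9 to 75.5). Longest tracts of 48 bases or more were found in 8 OLG and 32 OPC repeat peaks. Shorter tracts also formed a group, with 21 OLG and 77 OPC repeat peaks at 12 to 15 bases.

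The longest tracts were mostly intronic or intergenic. In OLG they lay near Kcnj10 (57 bases, 9865 bp inside the gene from its start) and near Srpk2 (57 bases, 11340 bp upstream). Ubash3b followed with 56 bases at 116358 bp, and Arhgef10l with 54. A tract of 53 bases lay in an intron of Eif4g3, a translation initiation factor gene, where the nearest start was that of Hp1bp3, a heterochromatin-binding protein gene. Scnn1a had 53 bases, Celf1, an RNA-binding splicing regulator, 50, and Ier5l, an immediate early response gene, 49. The remaining 2 of the 10 longest were 47 bases in an intron of the calpain gene Capn5, nearest to Omp, and 42 bases in Jsrp1, a gene of the muscle sarcoplasmic reticulum. Of these 10 OLG peaks, the one in Capn5 did not overlap an OPC peak, where 20 of all 100 OLG repeat peaks did not.

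In OPC the 2 longest tracts had 63 bases and lay in introns of Zfp536, a zinc finger gene, 9085 bp from its start, and of Adal, an adenosine deaminase-like gene, 10996 bp from its start. Sez6l, a neuronal membrane protein gene, had a 59-base tract 25989 bp upstream. Another of 59 bases lay 286624 bp from Id2, like Id1 an inhibitor of basic helix-loop-helix factors, in a peak whose 2 tracts added up to 106 bases, the most of any OPC repeat peak. Fam43b had 58 bases at 7216 bp, Srpk2 and Kcnj10 57, Id1 and Ubash3b 56, and Kirrel, a nephrin-like adhesion gene, 55 at 1483 bp upstream. Of these 10 OPC peaks, those near Srpk2, Kcnj10 and Ubash3b overlapped an OLG peak, and the other 7 did not, where 16.8% of all OPC repeat peaks and 3.90% of OPC peaks without the repeat did.

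Long tracts were rarer at promoters than elsewhere in OPC, where 20 of 42 promoter repeat peaks held a long tract (47.6%, 32 to 63.6), against 387 of 525 repeat peaks elsewhere (73.7%, 69.7 to 77.4). The odds ratio was 0.325 (0.163 to 0.645; adjusted p = 0.000973, Fisher's exact test), and with a promoter of 500 bp it was 0.383 with an adjusted p of 0.124. The median longest tract was 22.5 bases at OPC promoters and 29 elsewhere in OPC, and 15 bases at OLG promoters and 29 elsewhere in OLG. The OLG medians were not tested. The test compares peaks chosen by the repeat, so it cannot say that short promoter tracts have a peak more often than long ones. At promoters, 34.3% of 35 genomic tracts of 24 to 31 bases were at an OPC peak, against 9.48% of 211 tracts of 12 to 15 bases. These shares were not tested against each other.

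**Figure D3:**
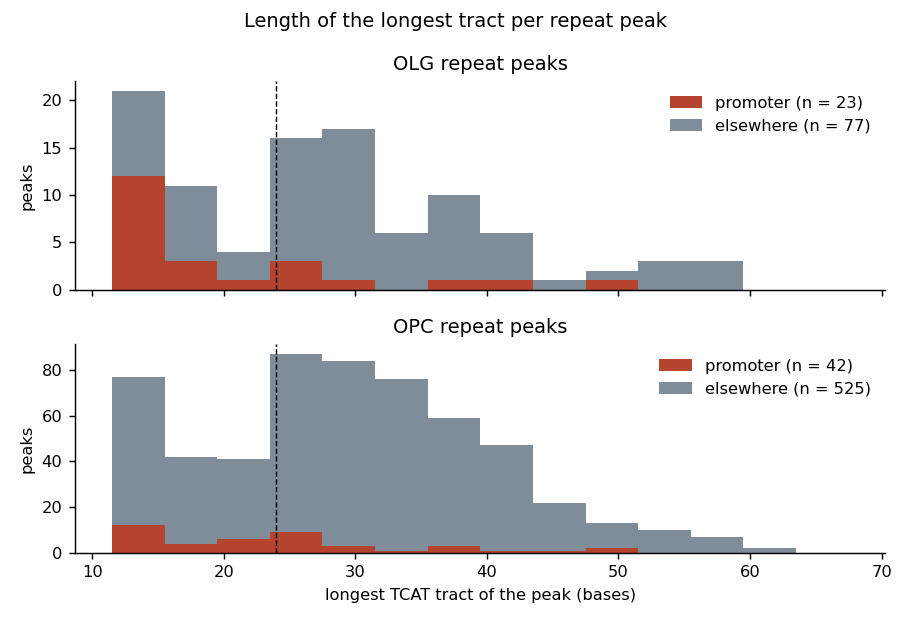
Number of repeat peaks by the length of their longest tract in bases, for OLG (upper panel) and OPC (lower panel), stacked with promoter peaks in red and peaks elsewhere in grey. The dashed line marks 24 bases. Promoter peaks have medians of 15 bases in OLG and 22.5 bases in OPC, against 29 bases elsewhere in both. In OPC they spread over both sides of the line, with 20 of 42 at 24 bases or more.

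All 23 OLG promoter repeat peaks can be named. The longest tract was at Celf1, with 50 bases 284 bp upstream, then at Prss27, a serine protease gene (41 bases), Trp73, a p53 family gene (37), Rhod (29), and Sergef, a secretion regulator (27). Dcbld1 had 25 bases, the calmodulin gene Calm3 24, Tfg, a gene for export from the endoplasmic reticulum, 20, and Sulf2, a heparan sulfate sulfatase gene, 19. The arginine sensor gene Castor2 and the spliceosome isomerase gene Ppil1 had 16. A length of 15 was found at Nme1, a nucleoside diphosphate kinase gene, at 3110082J24Rik, at the deubiquitinase genes Usp10 and Usp31, and at Vgf, which encodes a neuropeptide precursor. Nfkbie, an inhibitor of NF-kappaB, and Crhr1 had 14. The tracts had 13 bases at Ube2n, Rnft2, Tpcn2 and the ubiquitin ligase gene Dzip3, and 12 at Serp2. In this set the peak at Prss27 and the one at Nfkbie did not overlap an OPC peak, and the other 21 did. Away from promoters 59 of 77 OLG repeat peaks overlapped one, and of all OLG peaks without the repeat 10.5% did.

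The 15 OPC promoter repeat peaks with the longest tracts began with Celf1 (50 bases), the lymphocyte receptor gene Cd5 (48) and the cilium gene Cfap45 (47). Gm3646 had 40 bases, Ncan 39, Uhrf1, which maintains DNA methylation, 38, and Trp73 37. Nbas, a gene of transport between Golgi and endoplasmic reticulum, had 33 and the anion transporter gene Slc26a8 29. The zinc transporter gene Slc30a6 and the cilium regulator Rfx2 had 28, the RNA cleavage factor gene Cstf2 and Sergef 27, and Vgf and the integrin gene Itgax 26. The sites at Celf1, Trp73, Sergef and Vgf also had an OLG peak. Of all OPC promoter repeat peaks 18 of 42 (42.9%) overlapped an OLG peak. Away from promoters 77 of 525 OPC repeat peaks (14.7%) did, and of all OPC peaks without the repeat 3.90% did. Promoter repeat peaks lay upstream of the start in 14 of 23 OLG and 26 of 42 OPC cases.

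Most repeat peaks held a single tract. In OLG, 86 had 1 tract, 11 had 2, 2 had 3 and 1 had 5. In OPC, 461 had 1 tract, 83 had 2, 18 had 3, 4 had 4 and 1 had 5. The peak with 5 was in both lists the one shown near Epha2. The 4 OPC peaks with 4 tracts were nearest to Pfkfb3, a regulator of glycolysis (64 tract bases), the cytokine gene Il22 (58), Tmem143 (58) and the Mediator subunit gene Med13l (55). In OLG, Nagpa (75 tract bases) and Wnt7a (57) had 3 tracts, and Scnn1a (67) and a site in an intron of the noncoding gene Gm10863, nearest to Pick1 (52), had 2.

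Where a peak held several tracts, neighbouring tracts ran on the same strand in 18 of 19 cases in OLG and in 134 of 135 in OPC. The gap between them had a median of 8 bases in both lists and was 4 bases or less in 8 of 19 OLG and 51 of 135 OPC cases. In introns the TCAT strand was the coding strand of the host gene in 28 of 48 OLG cases (58.3%) and in 170 of 311 OPC cases (54.7%, 48.9 to 60.3), and the OPC share did not pass the test against an even split (exact binomial test, adjusted p = 0.162).

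The lists overlapped in part. An OPC peak overlapped 80 of the 100 OLG repeat peaks (80.0%), and an OLG peak overlapped 95 of the 567 OPC repeat peaks (16.8%). Of the peaks without the repeat, 174 of 1652 in OLG (10.5%) and 159 of 4076 in OPC (3.90%) overlapped a peak of the other list. In 70 pairs both windows held the repeat. No source used here says how the pooled input entered the calling, so both lists may rest on the same control. A long tract was held by 66.3% of shared and 55.0% of unshared OLG repeat peaks (odds ratio 1.60, 0.517 to 4.85; adjusted p = 0.472, Fisher's exact test). In OPC it was held by 67.4% of shared and 72.7% of unshared repeat peaks (0.777, 0.473 to 1.29; adjusted p = 0.376, Fisher's exact test). Several tracts were held by 20.0% of shared and 18.4% of unshared OPC repeat peaks (1.11, 0.599 to 1.97; adjusted p = 0.773, Fisher's exact test). None of these 3 differences passed the test, and the intervals of their odds ratios all span 1.

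Seen from the genome, a TCAT tract at a promoter was at a peak more often than a tract elsewhere. Chromosomes 1 to 19 and X held 16888 such tracts. Among them 119 lay in the window of an OLG peak (0.705%) and 702 in that of an OPC peak (4.16%). In OLG, 24 of 330 promoter tracts were at a peak (7.27%, 4.72 to 10.6), against 95 of 16558 tracts elsewhere (0.574%, 0.464 to 0.701). The odds ratio was 13.6 (8.18 to 21.8; adjusted p = 4.4e-17, Fisher's exact test). In OPC, 48 of 330 promoter tracts were at a peak (14.5%, 10.9 to 18.8), against 654 of 16558 elsewhere (3.95%, 3.66 to 4.26), an odds ratio of 4.14 (2.95 to 5.70; adjusted p = 1.29e-13, Fisher's exact test). The OLG odds ratio was 6.83 for tracts of at least 16 bases and 6.48 for at least 20 bases. It was 8.24 with a promoter of 2 kb and 17.4 with one of 500 bp, and it passed the test in each setting. Tracts of 1 array share their sequence and peak, so they are not independent, and the intervals are too narrow to that extent.

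Promoters held only 330 of the 16888 tracts. The difference was also present among the shortest tracts, a comparison added after seeing the data and tested as such. At 12 to 15 bases, 7.11% of 211 promoter tracts were at an OLG peak against 0.188% of 10133 tracts elsewhere, and 9.48% of promoter tracts were at an OPC peak against 1.49% elsewhere. The odds ratios were 40.7 in OLG (adjusted p = 2.29e-16, Fisher's exact test) and 6.92 in OPC (adjusted p = 1.08e-09, Fisher's exact test). At 24 to 31 bases the OPC shares were 34.3% of 35 promoter tracts and 7.40% of tracts elsewhere. At 32 to 47 bases they were 27.8% of 18 promoter tracts (9.69 to 53.5) and 17.7% of tracts elsewhere, and the OLG shares were 5.56% (0.141 to 27.3) and 1.93%, with intervals of promoter tracts that take in the shares elsewhere. For tracts of other tandem tetranucleotides the shares at promoters and elsewhere were not tested against each other. Of 14273 promoter tracts of other units, 24 were at an OLG peak (0.168%) and 41 at an OPC peak (0.287%), against 0.00584% and 0.0229% of such tracts elsewhere. A higher share at promoters was thus not particular to TCAT. As a multiple of the share elsewhere, the share at promoters was smaller for TCAT than for other units in both lists. TCAT tracts at promoters were above promoter tracts of other units. The odds ratios were 46.5 (25 to 86.6) in OLG and 59.0 (37.4 to 93.4) in OPC. The p values adjusted over 2 tests were 2.69e-27 and 1.06e-55 (Fisher's exact test), from a comparison made once the values were known. Repeat peaks were defined by TCAT with earlier results of these data known. The p values therefore cannot show that peaks favour TCAT over other units, and the odds ratios only describe the shares. Away from promoters TCAT tracts were above other units as well, at 0.574% against 0.00584% in OLG and 3.95% against 0.0229% in OPC, without a test. In relative terms TCAT stood further above other units there than at promoters, in both lists.

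**Figure D4:**
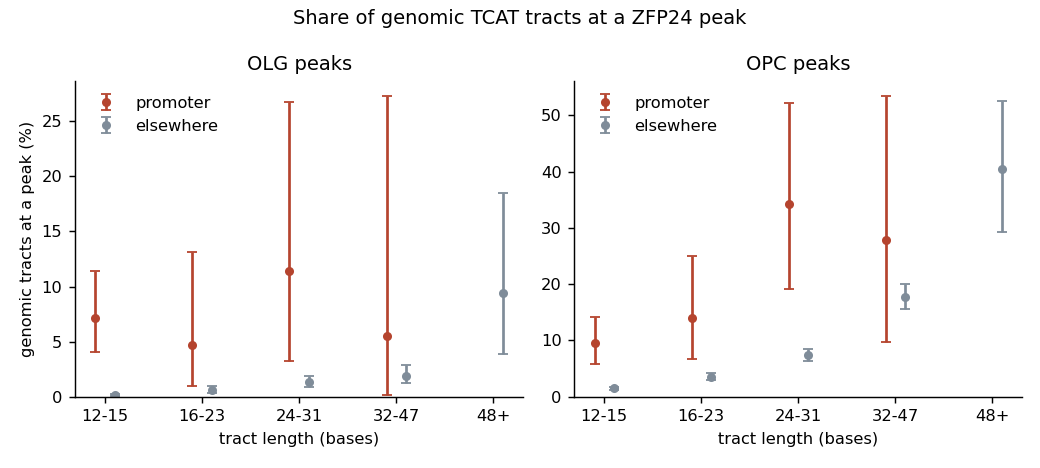
Share (%) of genomic TCAT tracts that lie in the window of an OLG peak (left panel) or OPC peak (right panel), by tract length in bases, with promoter tracts in red and tracts elsewhere in grey. Points are shares and whiskers exact 95% intervals, classes with under 10 tracts are left out, and the panels have different scales. At 12 to 15 bases the red points, at 7.11% and 9.48%, stand above the grey ones at 0.188% and 1.49%.

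Tracts in introns and in intergenic sequence were also set side by side. Of tracts of 32 to 47 bases, 121 of 527 in introns were at an OPC peak (23%, 19.4 to 26.8), against 74 of 563 intergenic tracts (13.1%, 10.5 to 16.2). In OLG the shares were 10 of 527 in introns (1.90%) and 12 of 563 in intergenic sequence (2.13%). Over tracts of all lengths the intron share was the higher in both lists. In OLG it was 0.759% (0.571 to 0.990) against 0.622% (0.466 to 0.813) of intergenic tracts, with intervals that overlap, and in OPC 5.36% against 3.29%. These shares are given without a test.

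Short tracts at a peak more often had further TCAT units close by, as seen at Sox10, but among tracts with no other tract near this was seen in OPC only. Whole TCAT units on the same strand were counted in the 50 bases on each side of every tract, a count chosen after the data had been seen. In OPC, 132 of 171 tracts of 12 to 15 bases at a peak had 3 or more such units (77.2%, 70.2 to 83.3), against 1613 of 10173 tracts not at a peak (15.9%, 15.2 to 16.6). The odds ratio was 18 (12.4 to 26.5). In OLG it was 18 of 34 tracts at a peak (52.9%, 35.1 to 70.2) against 16.8% of tracts not at a peak, with an odds ratio of 5.59 (2.68 to 11.7). For tracts of 24 to 47 bases the shares were 20.1% at an OPC peak and 12.9% not at one (odds ratio 1.70, 1.28 to 2.24), and 21.4% at an OLG peak and 13.5% not at one (1.74, 0.831 to 3.39). In Fisher's exact test the p values adjusted over these 4 tests were 3.8e-68 for short OPC tracts, 3.21e-06 for short OLG tracts, 0.000269 for the longer OPC tracts and 0.113 for the longer OLG tracts.

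Many of these tracts had another tract close by, which adds its own units to the count. Tracts of 1 array were counted separately and are not independent, so the intervals above are too narrow and the p values too small to that extent. Where no other tract lay within 50 bases, 20 of 54 short tracts at an OPC peak still had 3 or more units (37.0%, 24.3 to 51.3), against 7.35% of 9139 not at a peak. In OLG 1 of 15 such tracts did (6.67%, 0.169 to 31.9), against 7.53% of those not at a peak. Among all short promoter tracts, lone or not, 4 of 15 at an OLG peak had 3 or more units (26.7%, 7.79 to 55.1), against 18.4% not at one. In OPC 9 of 20 short promoter tracts at a peak did (45.0%, 23.1 to 68.5), against 16.2% not at one. The lone short tracts at promoters had few TCAT units beside them. None of the 9 at an OPC peak and none of the 9 at an OLG peak had 3 units, which allows up to 33.6% in each. Some tracts, such as those at Ube2n and Serp2, were at a peak in both lists, so these counts are not independent. The lone tracts did carry a mean of 2.11 TCAC units at OPC peaks and 2.33 at OLG peaks, against 0.53 and 0.52 beside promoter tracts not at a peak. Tpcn2 and Crhr1 above show short tracts beside TCAC or TCGT units.

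The GC content around a tract moved with these results. In the flanks of tracts elsewhere it had a median of 46.5% at an OLG peak against 39.5% not at one, and of 44.0% at an OPC peak against 39.5% not at one. At promoters the medians were 49.5% at an OLG peak and 44.2% not at one, and 48% at an OPC peak and 44.0% not at one. Its part in which tracts had a peak was not tested.

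Genes of the oligodendrocyte programme and of other groups were searched for repeat peaks close by. Of 602 genes in 16 lists (lineage, myelin, signalling, cell cycle, chromatin, channels and markers of other cells), 2 had an OLG repeat peak within 10 kb of a start, against 60 of all 21668 protein-coding genes (0.277%). In OPC 11 had one, against 186 of all genes (0.858%). The listed share was 0.332% in OLG and 1.83% in OPC, and nothing particular to the lists is read from these counts, since the lists were chosen with earlier results known.

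In the lineage list the 1 OPC gene of 45 was Sox10, with the 12-base tract 6716 bp upstream of its start. A shared peak with a 36-base tract lay further out, 36928 bp upstream in OLG and 37025 bp upstream in OPC by the peak centres. Of 40 myelin genes Mag had an OPC repeat peak, with a 25-base tract in an intron 6087 bp from its start, and no myelin gene had one in OLG. Of 24 progenitor genes Ncan had an OPC peak 648 bp upstream (39 bases) and Grik3, a kainate receptor gene, one 4761 bp upstream (15 bases).

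Regulators of growth and signalling gave single cases. In the list for Notch, Wnt and BMP signalling, which has 50 genes, Id1 had the 56-base tract 2271 bp upstream in OPC. Of 44 cell cycle genes Ccne1, which encodes a cyclin of entry into S phase, had a 16-base tract 580 bp upstream in OPC. Of 50 chromatin regulators Kdm1a, a histone demethylase gene, had a 17-base tract 2603 bp from its start in OLG. Of 45 growth factor and PI3K-mTOR genes and of 40 lipid synthesis genes, 0 had a repeat peak within 10 kb in either list.

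In the cytoskeleton list, 2 of 52 genes had OPC repeat peaks. Macf1, which links microtubules to actin, had 2 of them, 7719 bp inside the gene (26 bases) and 7686 bp upstream of a start (28 bases), and Arhgef7, a guanine nucleotide exchange factor gene, had one 3509 bp upstream (28 bases). Of 56 channel and receptor genes Kcnj10 had the 57-base tract in both lists. Of 57 axon guidance genes, 30 ribosome and housekeeping genes and the neuronal, astrocyte and vascular marker lists, 0 had one within 10 kb, whereas 1 of 16 microglial markers, Tmem119, had 3 tracts of up to 15 bases 569 bp upstream in OPC. Peaks of any kind lay near more of the listed genes. Of the 45 lineage genes, for example, 6 had an OLG peak of some kind within 10 kb and 14 an OPC peak. This was not particular to the lineage list, since of 30 ribosome and housekeeping genes 4 had an OLG peak and 10 an OPC peak. Over all 602 listed genes the shares were 13.8% in OLG and 21.8% in OPC, where 6.48% of all 21668 genes had an OLG peak and 12.8% an OPC peak.

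Wider distances brought in further regulators. Within 50 kb, 41 of 602 listed genes had a repeat peak in either list. In OLG these were 10 listed genes (1.66%), against 0.891% of all genes, and in OPC 37 (6.15%), against 3.58%. In OPC they included Ccnd1, a G1 cyclin gene, with a 51-base tract 32318 bp upstream, Rb1, the retinoblastoma gene, with 36 bases 12059 bp upstream, and Fgf2, a growth factor gene, with 37 bases in an intron. Intronic tracts of 28 bases lay in Axin2, a Wnt pathway inhibitor, and in Elovl7, a fatty acid elongase gene, of 31 bases in Wnt7b and of 27 bases in Srebf2, a regulator of sterol synthesis. Tcf7l2, a Wnt effector that oligodendrocytes use in maturation, had a 20-base tract 43569 bp upstream. Ntn1, the netrin gene, had a 31-base intronic tract at 32149 bp in OLG and 32193 bp in OPC, in peaks that overlapped.

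Most nearest genes had a single repeat peak. No like count is given for peaks without the repeat, so nothing particular to repeat peaks is read from these counts. The 100 OLG repeat peaks had 99 different nearest genes, with Map7d1 as the only one with 2. The 567 OPC repeat peaks had 539 different nearest genes, of which 24 had 2 or more and 4 had 3. These 4 were Gdnf, a neurotrophic factor gene (147140 to 172144 bp away), Igsf21, an adhesion gene (64588 to 104692 bp), Nrxn3, a synaptic adhesion gene (11248 to 152681 bp), and Ubash3b (14608 to 116338 bp).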

How the data were processed

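Per the labels' protocols, ZFP24 chromatin was read as 75 nt single-end reads. The deposited values are peak coordinates on mm10, in 4 columns (chromosome, start, end, name), and the submitters' processing notes name BWA and HOMER 4.8.3. Calling options, thresholds and the use of the null and input libraries are stated by no source used here. Peaks were 221 bp wide in OLG and 209 bp in OPC.

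Tracts were searched in GRCm38.p6 and peaks placed by their centre on the GENCODE M21 basic annotation. Positions are 1-based. Lists were matched by an overlap of 1 bp. Python 3.11.15, numpy 2.4.6, pandas 2.3.3 and scipy 1.17.1 were used, with Fisher's exact and exact binomial tests, Benjamini-Hochberg adjustment and a threshold of 0.05. A p-value here covers peaks or tracts of 1 library. Steps were tested on simulated data. Alternatives were other tract minimums, windows, promoter widths, overlaps and gene distances.

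Named genes were listed genes with a repeat peak within 10 kb, the nearest genes of the 10 longest tracts per list, all OLG and the 15 longest OPC promoter peaks, and the 5 peaks per list with most tracts. Listed genes within 50 kb and nearest genes with 3 repeat peaks were chosen after seeing values. A listed gene that the rule names is not reported here. Members and lists were chosen with earlier results of these data known.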

Additional observations from a re-analysis of the deposited data

How the results depend on the processing

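Of 56 alternatives over 16 results, 49 kept the direction and the side of the threshold of 0.05, or a count within 1.5 times. With a minimum of 20 bases the OLG repeat peaks numbered 65, and in 100 bp around the centre 64, against 100. In OPC a long tract defined as 20 bases turned the odds ratio of shared against unshared peaks to 1.08 (adjusted p = 0.89, Fisher's exact test), against 0.777, and an overlap of at least 100 bp turned that of several tracts to 0.987 (adjusted p = 1, Fisher's exact test), against 1.11. Neither comparison passed the test in its main setting or in any alternative run. With a promoter of 500 bp the odds ratio of a long tract at OPC promoters was 0.383 with an adjusted p of 0.124. The cause was not tested. Listed genes with a repeat peak numbered 3 within 2 kb and 41 within 50 kb, against 12 within 10 kb, since the distance sets the count. Tracts of 12 to 15 bases alone, added after seeing the data, gave promoter odds ratios of 40.7 in OLG and 6.92 in OPC, against 13.6 and 4.14. Among planned settings, a promoter of 500 bp also raised the OLG ratio, to 17.4. The others moved it the other way, to 6.83 with a minimum of 16 bases, 6.48 with 20 bases and 8.24 with a promoter of 2 kb. Among called results, the odds ratio of a promoter position moved from 0.307 to 0.168 and 0.145 in OLG with minimums of 16 and 20 bases, and from 0.123 to 0.0585 in OPC with a promoter of 500 bp, and that of an intergenic position in OLG moved from 2.30 to 3.48 with 20 bases. No paired analysis was possible because each group had 1 library, and for the same reason no replicate could be left out. The depth of the libraries is unknown, so a tract without a peak is not shown to be unbound. The null and input signal was not used here.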

Other observations

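The number in each peak name, whose meaning no source used here gives, was low for repeat peaks. Among the lowest 10% of numbers within each chromosome, 48 of 167 OLG peaks (28.7%, 22.0 to 36.2) and 220 of 455 OPC peaks (48.4%, 43.7 to 53.1) held the repeat, against 3.28% of the remaining OLG and 8.29% of the remaining OPC peaks. The lowest-numbered peak of a chromosome held it on 10 of 20 chromosomes in OLG and on 18 of 20 in OPC.

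The letter after a tract was counted as well. Of tracts that stopped after TCA, the next letter was C in 33 of 42 at an OLG peak (78.6%, 63.2 to 89.7) and in 51.7% of those not at one. In OPC it was C in 213 of 282 at a peak (75.5%, 70.1 to 80.4) and in 50.5% of those not at one, and for tracts of 24 to 47 bases in 67.2% (58.4 to 75.1) and 52.4%. These shares were chosen after seeing the data and carry no test.

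Motifs of other factors were searched as letters on both strands in the 200 bp window, and the shares carry no test. Tracts take up part of the window of a repeat peak, so less of it is left for other letters, and the part of this in the shares was not tested. The GC box GGGCGG was in 3.0% of OLG repeat peaks against 26.3% of other OLG peaks, and in 2.47% of OPC repeat peaks against 16.2% of other OPC peaks. Away from promoters it was in 1.30% against 11.1% in OLG and in 1.90% against 5.91% in OPC. The CCAAT box, CCAAT, was in 19.0% of OLG repeat peaks against 15.8% of other OLG peaks, and in 22.6% of OPC repeat peaks against 19.8% of other OPC peaks. Away from promoters the order turned, with 19.5% against 20.8% in OLG and 22.7% against 23.4% in OPC.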
